A study of Mus musculus with 6 samples.

Results

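The class I antigen presentation genes of the mouse were followed across sorted lymphocytes of the small intestinal epithelium. The set was defined by gene symbol, with earlier results of these data known. It held every class I gene of the H2 complex in the count table (H2-K, H2-D, H2-Q, H2-T, H2-M and H2-Bl names). It also held the light chain B2m and 12 further genes that serve or resemble class I. The further genes were Tap1, Tap2, Tapbp, Tapbpl, Erap1, Psmb8, Psmb9, Psmb10, Nlrc5, Mr1, Cd1d1 and Cd1d2. In all 44 of the 55487 genes in the table matched, of which 31 carry an H2 name, 36 lie on chromosome 17 and 8 lie elsewhere. Of the 44, 28 had enough counts to be tested, 4 had a few counts and 12 had no count in any library.

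Live cells carrying CD3ε and CD45 were sorted from the epithelial area of the small intestine, and the mice were wild type (WT) and of strain C57BL/6J. CD3ε is part of the antigen receptor of T cells, and CD45, encoded by Ptprc, is a phosphatase of white blood cells. The 3 B220+ libraries, called X cells in the labels, held sorted cells that carry B220, an isoform of CD45 typical of B cells. The 3 B220− libraries, called T cells in the labels, held the CD3ε+CD45+ cells without B220. The series title speaks of an RXR agonist, and no library used here is labelled as treated, so both groups share genotype, strain and tissue. Animal age and number are not given in the labels, and no label ties a library to its own mouse. The p-values therefore reflect library-to-library spread, which may be partly technical. Total gene counts were 11810859, 39591312 and 14173322 in B220+ replicates 1, 2 and 3, and 18773165, 17753655 and 11320363 in B220− replicates 1, 2 and 3.

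Class I molecules display peptides on the cell surface. The proteasome cuts cytosolic proteins, the TAP1-TAP2 transporter moves the peptides into the endoplasmic reticulum, ERAP1 trims them, and tapasin (Tapbp) and its relative (Tapbpl) help load them onto a heavy chain paired with β2-microglobulin (B2m). In the C57BL/6 mouse the classical heavy chains are H2-K1 and H2-D1, which present to CD8 T cells. The nonclassical H2-Q, H2-T and H2-M genes have narrower ligands, and some are read by receptors of natural killer cells, γδ T cells or intraepithelial lymphocytes. NLRC5 is the transactivator that drives many of these promoters, and interferons raise most of the pathway.

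The markers of the sort were read first. The 8 T cell markers (Cd3d, Cd3e, Cd3g, Cd247, Cd2, Trac, Trdc and Lck) summed to 5409 to 5968 CPM (counts per 1000000, normalised) in B220+ libraries and 5272 to 5399.6 CPM in B220− libraries. Markers of conventional helper and CD8αβ T cells (Cd4, Cd8b1, Cd5, Cd28 and Cd40lg) summed to 38.0 to 57.9 CPM in B220+ libraries and 525 to 897 CPM in B220− libraries, and all 5 were called lower. Of the T cell markers, Cd247 and Cd2 were called lower and Trdc, the constant region of the δ chain of γδ receptors, higher. Of 8 B cell markers, 6 stayed under 1 CPM in every library, and only Cd79b had enough counts to be tested and was not called. The 8 summed to 30.6 to 34.6 CPM in B220+ and 24.5 to 32.4 CPM in B220− libraries. Without Cd79b that sum was 0.679 to 1.63 CPM in B220+ and 0.510 to 1.57 CPM in B220− libraries, and Ebf1 and Cr2 had no count in B220− libraries. The 15 epithelial markers summed to 344 to 388 CPM in B220+ and 315 to 382 CPM in B220− libraries, mostly Epcam and Cdh1. The other 13 summed to 33.2 to 50.01 CPM in B220+ and 39.7 to 53.9 CPM in B220− libraries. EdgeR called 0 of the 15, with 1 higher (Epcam) and 1 lower (Muc2) at an unadjusted p under 0.05, and DESeq2 called 1 (Epcam) higher. The 12 macrophage and dendritic cell markers summed to 389.6 to 537 CPM in B220+ and 256 to 329 CPM in B220− libraries, with Lyz2 called lower. Without Itgax and Csf1r they summed to 8.74 to 12.2 CPM in B220+ and 13.6 to 14.4 CPM in B220− libraries, and Clec9a had no count in B220− libraries. Siglech, a marker of plasmacytoid dendritic cells, which also carry B220, had 3, 40 and 53 counts in B220+ libraries and 1, 0 and 3 counts in B220− libraries, too few for the test. The natural killer cell markers Ncr1, Klrb1c and Eomes summed to 24.9 to 26.5 CPM in B220+ and 16.5 to 19.5 CPM in B220− libraries, with Klrb1c called higher and Eomes lower. The part of these cell types in the class I values was not tested.

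Where class I genes passed the test, they were lower in B220+ cells. Of the 28 tested members, 9 were called lower (32.1%) and 0 higher by edgeR's quasi-likelihood test (Benjamini-Hochberg adjusted p under 0.05 over 14722 genes). Across all genes tested, 5.56% were called lower and 5.58% higher. The 9 were the transactivator Nlrc5, the peptide transporter subunit Tap1, the immunoproteasome subunits Psmb8 and Psmb9, and the nonclassical heavy chains H2-Q7, H2-Q10, H2-T22, H2-T24 and H2-M3. H2-K1, H2-D1 and B2m were not called. At an unadjusted p under 0.05, 12 members were lower and 1 (Mr1) was higher, and all genes were not counted at that threshold. DESeq2 called 8 lower and 0 higher, with 1762 of all genes called in either direction, beside 1639 by edgeR. Blocking on the replicate number, 12 members were called lower, beside 8.6% of all genes, and 0 higher, beside 8.85%. Leaving out B220+ replicate 1, 2 or 3 gave 5, 4 and 6 members called lower. Of all genes, 1246, 970 and 1199 were then called in either direction. Leaving out B220− replicate 1, 2 or 3 gave 5, 8 and 6 members called lower, with 1373, 1789 and 1029 of all genes called in either direction. For DESeq2 and the fits without 1 library, the share of all genes called lower was not counted.

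The differences were small. The 9 called members were 1.21- to 1.62-fold lower, and 0 of them were called when the test was made against a fold change of 1.5. The median log2 fold change of the 28 tested members (B220+ minus B220−) was −0.18, beside −0.0074 over all genes tested, whose quartiles were −0.15 and 0.14. In all, 24 members had a log2 fold change below 0 and 4 above, beside 51.5% of all genes below 0. All 3 B220+ libraries lay below all 3 B220− libraries for 15 members (53.6%), beside 13.9% of all genes tested. Only Cd1d1 showed the opposite, with all 3 B220+ libraries above, beside 14.1% of all genes, and 12 members overlapped. In sorted pools, fewer cells of a type and less RNA per cell cannot be told apart.

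**Figure D1:**
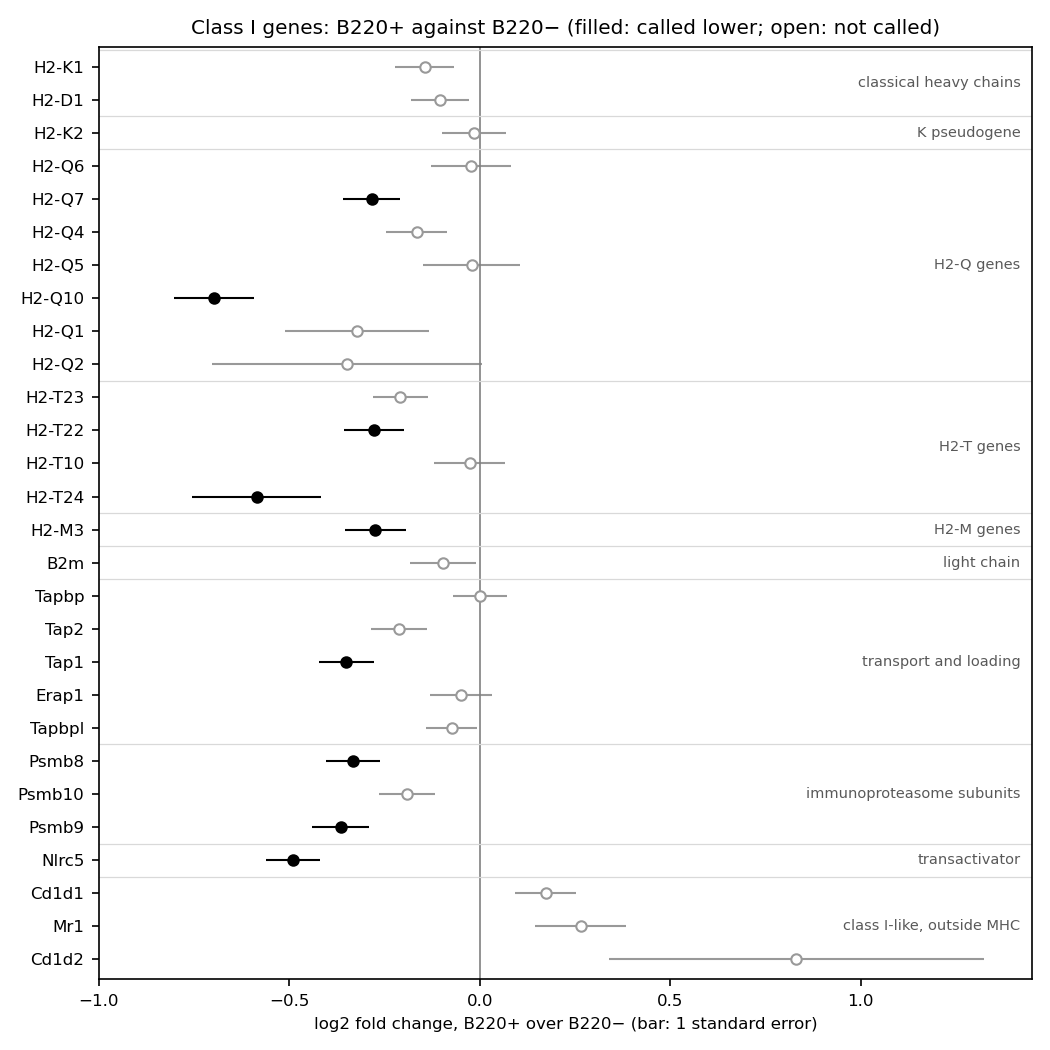
Log2 fold change (B220+ over B220−, horizontal axis) of the 28 tested class I genes, grouped by role, with bars of 1 standard error from edgeR. The 9 filled points, from H2-Q10 at −0.70 to H2-M3 at −0.27, were called lower, and the 3 class I-like genes at the bottom lie right of 0 without being called.

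The classical heavy chains were among the most abundant transcripts of these cells and were not called. H2-K1 (chromosome 17, 33996017 to 34000347, mm10, minus strand) had 3210.5, 3369 and 3427 CPM in B220+ replicates 1, 2 and 3, and 3729, 3675 and 3655 CPM in B220− replicates 1, 2 and 3. All 3 B220+ values lay below all 3 B220− values. The log2 fold change was −0.14 (SE 0.077), which did not pass (edgeR adjusted p = 0.308). H2-D1 (chromosome 17, 35262730 to 35267499, plus strand) had 2926, 2941 and 3142 CPM in B220+ libraries, and 3199, 3221 and 3264 CPM in B220− libraries. The groups again did not overlap, and the log2 fold change was −0.10 (SE 0.077, edgeR adjusted p = 0.490). Summed as 1 row, H2-K1 and H2-D1 had 6136, 6310.0 and 6568 CPM in B220+ libraries and 6928, 6896 and 6919 CPM in B220− libraries, with a log2 fold change of −0.13 (edgeR adjusted p = 0.427). By raw count H2-K1 ranked between 8 and 12 among all genes in each library, and H2-D1 between 13 and 16. The tested pseudogene of the K region, H2-K2, had a log2 fold change of −0.015 and overlapping groups.

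B2m, the light chain shared by the classical and most nonclassical heavy chains, had 2031, 1832 and 2079.5 CPM in B220+ libraries, and 2327, 2023 and 2004 CPM in B220− libraries. The groups overlapped, and the log2 fold change was −0.097 (SE 0.087, edgeR adjusted p = 0.593). B2m lies on chromosome 2 (122147686 to 122153083), and every 50-base stretch of its transcripts was unique among annotated mouse transcripts.

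Of 7 tested H2-Q genes, 2 were called lower. H2-Q7, which encodes the Qa-2 antigen together with near-copies such as H2-Q6, had 812, 892 and 859 CPM in B220+ libraries, and 1097, 966 and 1058 CPM in B220− libraries. All B220+ libraries were lower, by 1.22-fold (log2 fold change −0.28, SE 0.076, edgeR adjusted p = 0.0293). H2-Q6 had 863, 1111 and 1122 CPM in B220+ libraries, and 954, 1076 and 1115 CPM in B220− libraries. These groups overlapped, with B220+ replicate 1 the lowest of the 6, and the log2 fold change was −0.023 (SE 0.10, edgeR adjusted p = 0.936). The difference between H2-Q7 and H2-Q6 was not tested. H2-Q4 had 684, 800.2 and 805 CPM in B220+ libraries, and 826, 852 and 891 CPM in B220− libraries. Its groups did not overlap, but the log2 fold change of −0.17 (SE 0.080) was not called (edgeR adjusted p = 0.244). H2-Q5, annotated as a polymorphic pseudogene, had 211, 279 and 250.3 CPM in B220+ libraries and 211, 276 and 266 CPM in B220− libraries. Its groups overlapped almost fully (log2 fold change −0.021, edgeR adjusted p = 0.951), and replicate 1 was the lowest of each group.

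H2-Q10 showed the largest fold among the called members. It encodes a class I heavy chain that is known as a secreted protein of the liver. It had 21.8, 29.7 and 27.2 CPM in B220+ libraries, and 44.0, 42.0 and 42.8 CPM in B220− libraries. The 3 B220− values lay within a narrow range, and the highest B220+ value was well below them. The log2 fold change was −0.70 (SE 0.11), or 1.62-fold lower (edgeR adjusted p = 8.70e-04). The call held in 6 of 6 fits that each left out 1 library. Of its 50-base stretches outside retained-intron transcripts, 92.3% were unique among annotated transcripts. Those stretches numbered 2018, beside 4.348 kilobases of annotated exon, so the share does not cover all exons of the gene. H2-K1, whose level per kilobase is far higher, shared 7.85% of its own 50-base stretches with H2-Q10. The part of such shared reads in the H2-Q10 value was not tested. The remaining H2-Q genes, H2-Q1 (log2 fold change −0.32) and H2-Q2 (−0.35), stayed at or under 11.4 CPM, overlapped and were not called.

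The Qa-2 genes are near-copies, and how the authors assigned reads that match several genes is not given in the sources used here. Among 50-base stretches, 65.1% of H2-Q7 and 65.0% of H2-Q6 were unique, and 82.8% and 87.0% of their 100-base stretches. The 50-base stretches of H2-Q7 numbered 1669, beside 4.265 kilobases of annotated exon, because retained-intron transcripts were left out. H2-Q5 and H2-Q4 were unique in 57.4% and 60.8% of 50-base stretches. H2-Q4 shared most with Gm11131 (16.1% of its 50-base stretches), a gene that overlaps it on the opposite strand. A sum of H2-Q genes does not address that part. The read length is not given either, so the values of these 4 genes are uncertain to that extent. Summed as 1 row, H2-Q4, H2-Q5, H2-Q6, H2-Q7 and H2-Q10 had 2593, 3112 and 3063 CPM in B220+ libraries, and 3133, 3212 and 3373 CPM in B220− libraries. The sum did not overlap between groups, and its log2 fold change of −0.15 (SE 0.090) was not called (edgeR adjusted p = 0.379).

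**Figure D2:**
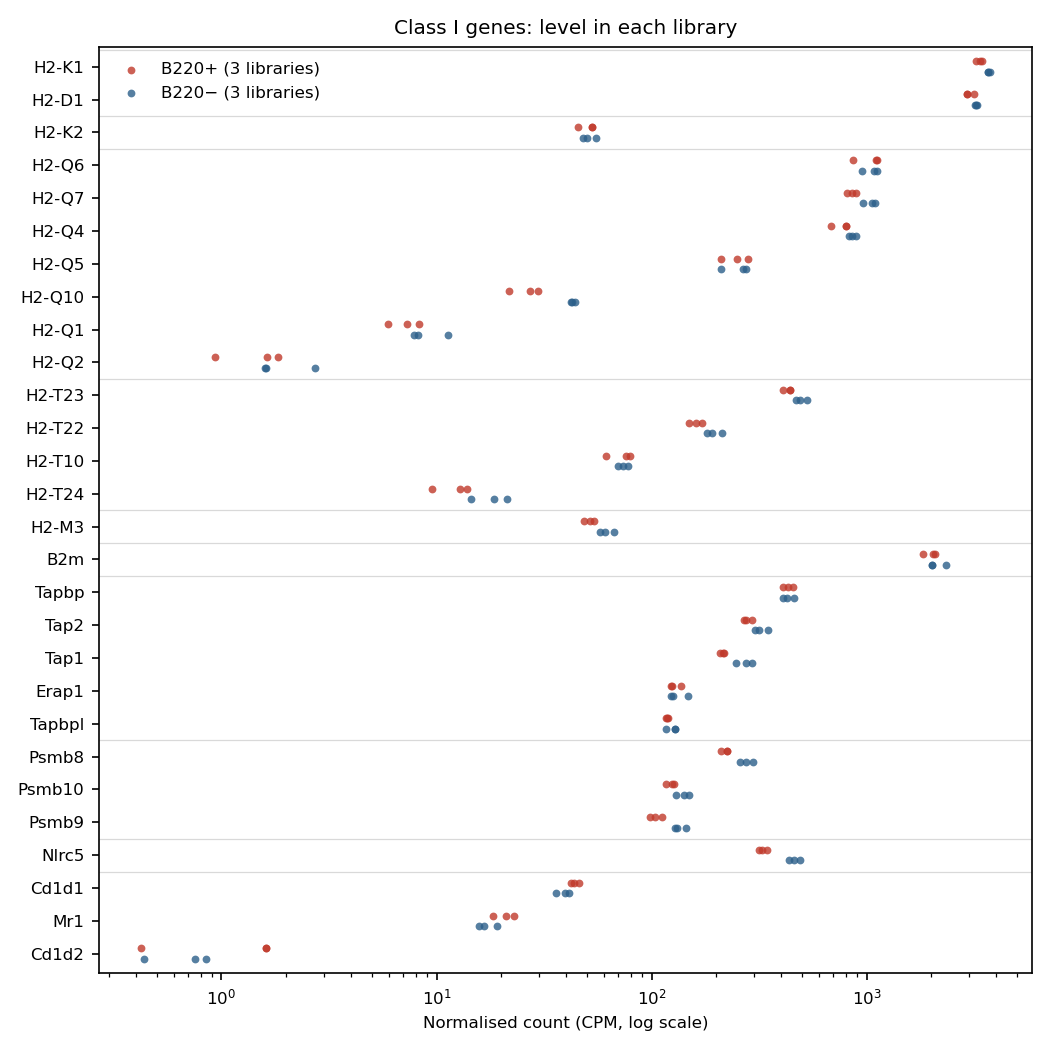
Normalised counts (CPM, log scale) of the 28 tested class I genes in each library, with B220+ libraries in red above B220− libraries in blue. H2-K1, H2-D1 and B2m stand at the right between 1832 and 3729 CPM, while H2-Q10 shows the 2 groups apart, at 21.8 to 29.7 CPM in B220+ and 42.0 to 44.0 CPM in B220− libraries.

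Promoter stretches were taken for the tested heavy chains with an interferon regulatory factor element. A stretch that any annotated exon touched is not shown. That left 4 genes, without the called H2-T22 and H2-M3 and the uncalled H2-D1, H2-Q4 and H2-T23. Among the 4, H2-Q6 and H2-Q7 are near-copies of which H2-Q7 alone was called. H2-Q10 had the largest called fold, and H2-K1 is a classical gene. The stretches are from RefSeq (GRCm38.p6, which has the coordinates of mm10), lie before the annotated exons, and are written 5′ to 3′ on the strand of the gene. Capitals mark matches on either strand to GGGATTCCC (a kappaB site), GAANNGAAA or GAAANNGAA (interferon regulatory factor elements of 2 spacings) and CCAAT. They cover chr17:34000348-34000477 (minus strand) for H2-K1, chr17:35424658-35424827 (plus) for H2-Q6, chr17:35439002-35439154 (plus) for H2-Q7 and chr17:35469894-35470063 (plus) for H2-Q10.
H2-K1: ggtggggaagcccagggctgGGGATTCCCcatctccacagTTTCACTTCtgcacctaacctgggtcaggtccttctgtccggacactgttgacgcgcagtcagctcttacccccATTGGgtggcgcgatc
H2-Q6: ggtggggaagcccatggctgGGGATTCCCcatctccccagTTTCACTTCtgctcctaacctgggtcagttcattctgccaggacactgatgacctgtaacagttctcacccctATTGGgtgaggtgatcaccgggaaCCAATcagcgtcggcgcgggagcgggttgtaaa
H2-Q7: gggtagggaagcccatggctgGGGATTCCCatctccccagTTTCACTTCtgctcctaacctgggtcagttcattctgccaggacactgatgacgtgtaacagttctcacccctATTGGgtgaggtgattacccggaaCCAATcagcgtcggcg
H2-Q10: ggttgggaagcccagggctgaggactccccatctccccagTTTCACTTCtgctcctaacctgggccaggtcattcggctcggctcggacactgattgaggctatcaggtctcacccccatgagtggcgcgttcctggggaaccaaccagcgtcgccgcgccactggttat
H2-K1, H2-Q6 and H2-Q7 each held the kappaB match followed by the interferon element, and all 4 genes held the interferon element, for which they were picked. Over the RefSeq window of 250 bases before to 50 after the gene start, the kappaB letters were found at H2-K1, H2-D1, H2-Q6 and H2-Q7, which is 4 of the 30 members with an entry, and in 0.353% of 32851 mouse promoters. An interferon element of either spacing was found in 12 of the 30 members and in 14.8% of all promoters, and no member held both spacings. The kappaB match began at −110 in H2-K1, −172 in H2-Q6 and −132 in H2-Q7, counted from the gene start, and the interferon element at −90, −152 and −113, and at −155 in H2-Q10. These paralogs share sequence by descent, so the members are not independent. The interferon element was present in 4 of 7 called members with an entry and in 7 of 11 tested members that were not called, and the kappaB letters in 1 of 7 and 3 of 11. CCAAT was found in 23 of the 30 members and in 37.4% of all promoters. A match describes these letters and does not show that a factor binds.

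**Figure D3:**
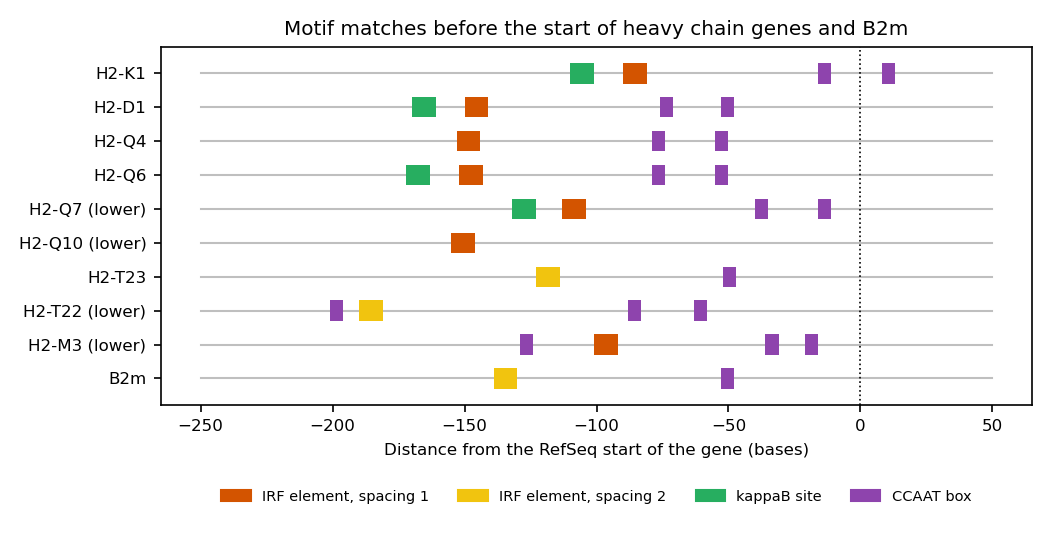
Distance in bases from the RefSeq gene start (horizontal axis) of motif matches on either strand in the promoters of the 9 tested heavy chains that hold an interferon element and of B2m, with called genes labelled as lower. The rows were picked for the interferon element, and the kappaB site is present in H2-K1, H2-D1, H2-Q6 and H2-Q7, of which only H2-Q7 was called.

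Of 4 tested H2-T genes, 2 were called lower. H2-T23, which encodes Qa-1, the class I molecule that shows leader peptides to CD94-NKG2 receptors, had 441, 407 and 441 CPM in B220+ libraries, and 530.4, 471 and 489 CPM in B220− libraries. The groups did not overlap, and the log2 fold change of −0.21 (SE 0.072) was not called (edgeR adjusted p = 0.0873), while it was with the replicate block (edgeR adjusted p = 0.0170). H2-T22, a class I molecule bound directly by some γδ T cell receptors, had 149, 162 and 171 CPM in B220+ libraries, and 212, 181 and 191 CPM in B220− libraries. It was 1.21-fold lower (log2 fold change −0.28, SE 0.079, edgeR adjusted p = 0.0382). H2-T10, its near-copy and annotated as a polymorphic pseudogene, had overlapping groups at 61.7 to 79.2 CPM in B220+ and 69.9 to 77.8 CPM in B220− libraries (log2 fold change −0.027). H2-T22 shared 36.6% of its 50-base stretches with H2-T10. Summed as 1 row, these genes had 210.4, 241 and 247 CPM in B220+ libraries and 282, 255 and 269 CPM in B220− libraries. The log2 fold change of the sum was −0.21, with an edgeR adjusted p of 0.113, and 0.0385 with the replicate block.

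H2-T24 and H2-M3 were the remaining called heavy chains. H2-T24 had 13.9, 12.9 and 9.48 CPM in B220+ libraries, and 21.2, 18.5 and 14.4 CPM in B220− libraries. The groups lay next to each other, with B220+ replicate 1 just below B220− replicate 3, and replicate 3 was the lowest of each group. The log2 fold change was −0.59 (SE 0.17, edgeR adjusted p = 0.0455). H2-M3, which presents N-formylated peptides of bacteria and mitochondria, had 53.9, 48.6 and 51.6 CPM in B220+ libraries, and 67.2, 57.9 and 60.7 CPM in B220− libraries. The groups did not overlap, and it was 1.21-fold lower (log2 fold change −0.27, SE 0.080, edgeR adjusted p = 0.0430). Of its 50-base stretches 99.4% were unique, and 96.8% of those of H2-T24.

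The calls of 4 heavy chains were lost in most of the fits that left out 1 library. Such fits have fewer libraries, and 970 to 1789 of all genes were called in them, beside 1639 with all 6. H2-Q7 and H2-M3 each kept an edgeR call only without B220− replicate 2, of 6 fits that each left out 1 library. The highest adjusted p was 0.122 for H2-Q7 (without B220− replicate 3) and 0.187 for H2-M3 (without B220+ replicate 2). H2-T24 kept its call only without B220− replicate 3 (edgeR adjusted p up to 0.147, without B220+ replicate 3). H2-T22 kept it without B220+ replicate 3 or B220− replicate 2 (edgeR adjusted p up to 0.157, without B220+ replicate 1). With DESeq2, H2-M3 was not called (adjusted p = 0.0691). All 4 stayed below 0 on the log2 scale in every one of these fits.

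Most other nonclassical genes had few counts or none. Of 14 H2-M genes, H2-M3 alone was tested, and 12 had no count in any of the 6 libraries. A count of 0 over the summed libraries allows up to 3 counts, or 0.0457 CPM in the B220+ and 0.0627 CPM in the B220− group, which covers counting error only. H2-T3, which encodes the thymus leukemia antigen, a ligand of CD8αα known from the intestinal epithelium itself, had 2, 9 and 0 counts in B220+ libraries and 0, 0 and 5 counts in B220− libraries. H2-Bl, H2-Q3 and H2-M6-ps, all annotated as pseudogenes, had at most 20 counts in any library. Of 8 members annotated as pseudogenes, 4 were tested (H2-K2, H2-Q5, H2-T10 and Cd1d2), and edgeR called 0 of them at an adjusted or an unadjusted p under 0.05.

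The makeup of the heavy-chain pool was compared as shares of counts. All heavy-chain genes together took 0.948%, 1.02% and 1.04% of gene counts in B220+ libraries, and 1.09%, 1.09% and 1.13% in B220− libraries. The B220+ libraries were lower throughout. Of those heavy-chain counts, which are not corrected for gene length, H2-K1 and H2-D1 held 63.1% ± 1.35 in B220+ and 62.5% ± 0.590 in B220− libraries (SD, n = 3 each). The H2-Q genes held 29.1% ± 1.64 in B220+ and 29.4% ± 0.875 in B220− libraries, and the H2-T genes 6.73% ± 0.263 in B220+ and 7.09% ± 0.420 in B220− libraries. Each of these differences was smaller than the larger SD of its groups. H2-Q10 held 0.260% ± 0.0307 in B220+ and 0.388% ± 0.00987 in B220− libraries, and these ranges did not overlap. The shares of H2-Q7 (8.22% to 8.75% in B220+ and 8.80% to 9.96% in B220− libraries) and H2-T22 (1.57% to 1.64% in B220+ and 1.65% to 1.92% in B220− libraries) came close without overlapping. Those of the called H2-T24 overlapped (0.0908% to 0.146% in B220+ and 0.129% to 0.193% in B220− libraries). The shares of the called H2-M3 overlapped as well (0.477% to 0.567% in B220+ and 0.527% to 0.610% in B220− libraries).

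Per kilobase of exon, B2m was the most abundant member, at 2303 ± 152 CPM per kilobase in B220+ and 2463 ± 211 in B220− libraries (SD, n = 3 each). H2-D1 followed at 1164 ± 46.7 in B220+ and 1252 ± 12.8 in B220− libraries, and H2-K1 at 1135 ± 38.1 in B220+ and 1255 ± 12.96 in B220− libraries. H2-K1 and H2-D1 did not differ beyond their spread in either group. H2-Q6 (495 ± 70.1 in B220+ and 503 ± 40.4 in B220−), H2-Q4 (294 ± 26.3 in B220+ and 330 ± 12.5 in B220−) and H2-Q7 (200.3 ± 9.34 in B220+ and 244 ± 15.9 in B220−) came next, each apart from its neighbour. H2-Q5 and H2-T23 overlapped each other, at 155 ± 21.6 and 149 ± 6.78 CPM per kilobase in B220+ libraries, and 158 ± 21.96 and 172 ± 10.5 in B220− libraries. The level per kilobase depends on which exons are counted, and the annotated isoforms differ in length between paralogs.

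The transactivator of the pathway was among the clearest decreases. Nlrc5 (chromosome 8, 94434356 to 94527272) had 316, 344 and 325 CPM in B220+ libraries, and 459, 435 and 492 CPM in B220− libraries. The highest B220+ library stood well below the lowest B220− library. The log2 fold change was −0.49 (SE 0.071), or 1.41-fold lower (edgeR adjusted p = 6.31e-04). It was called in 6 of 6 fits that each left out 1 library, with edgeR adjusted p from 4.74e-04 to 0.00763. Of its 50-base stretches 99.6% were unique.

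The genes that make and move peptides lie in part side by side on chromosome 17. Psmb9 (34181987 to 34187764, minus strand), Tap1 (34187553 to 34197225, plus), Psmb8 (34197721 to 34201454, plus) and Tap2 (34203527 to 34216321, plus) are neighbours. Psmb8, Psmb9 and Psmb10 encode the catalytic subunits that replace the constitutive ones in the immunoproteasome. Psmb9 had 112, 98.4 and 104 CPM in B220+ libraries, and 144, 128 and 132 CPM in B220− libraries. It was 1.29-fold lower (log2 fold change −0.37, SE 0.075, edgeR adjusted p = 0.00659). Psmb8 had 225, 211 and 224 CPM in B220+ libraries, and 298, 259 and 274 CPM in B220− libraries. It was 1.26-fold lower (log2 fold change −0.33, SE 0.071, edgeR adjusted p = 0.00830). The groups did not overlap for either gene. Psmb10, on chromosome 8 (105935735 to 105938444), had 125, 117 and 127 CPM in B220+ libraries, and 149, 142 and 129.6 CPM in B220− libraries. These groups came close without overlapping (log2 fold change −0.19, SE 0.073), and the edgeR adjusted p was 0.132, and 0.0413 with the replicate block.

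Tap1 had 216, 208 and 216 CPM in B220+ libraries, and 294, 248 and 275 CPM in B220− libraries. The B220+ values varied little, and all lay below the B220− values, a 1.27-fold difference (log2 fold change −0.35, SE 0.073, edgeR adjusted p = 0.00740). Tap2, the partner subunit, had 294, 274 and 269 CPM in B220+ libraries, and 349, 316 and 304 CPM in B220− libraries. Its groups did not overlap, and the log2 fold change of −0.21 (SE 0.073) gave an edgeR adjusted p of 0.0873, and 0.0135 with the replicate block. Tapbp, which encodes tapasin, had 454, 409 and 429.8 CPM in B220+ libraries, and 457, 424 and 409 CPM in B220− libraries. Tapbp showed no difference beyond its spread (log2 fold change 0.0013, SE 0.071, edgeR adjusted p = 0.994). The aminopeptidase gene Erap1 (log2 fold change −0.049) and Tapbpl (−0.074), whose protein exchanges peptides on loaded heavy chains, overlapped and were not called.

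Among these genes, Tap1 and Psmb9 were called in 6 of 6 fits that left out 1 library. Psmb8 was called in 5 of 6, with an edgeR adjusted p of 0.0517 without B220+ replicate 2. Tap1 and Psmb9 overlap on opposite strands by 212 exonic bases. Psmb8 overlaps Gm20496 on the opposite strand by 498 bases, and Gm20496 had 57.4% of the counts of Psmb8 and a log2 fold change of −0.25 (edgeR adjusted p = 0.0513). Tap2 overlaps Gm15821 by 533 bases, which had 33.8% of its counts and was called lower (log2 fold change −0.25, edgeR adjusted p = 0.0337). Tapbp overlaps Gm19412, H2-Q4 overlaps Gm11131 and Erap1 overlaps Cast in the same way. Whether counting used strand is not given in the sources used here, so reads of such pairs may not be told apart.

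**Figure D4:**
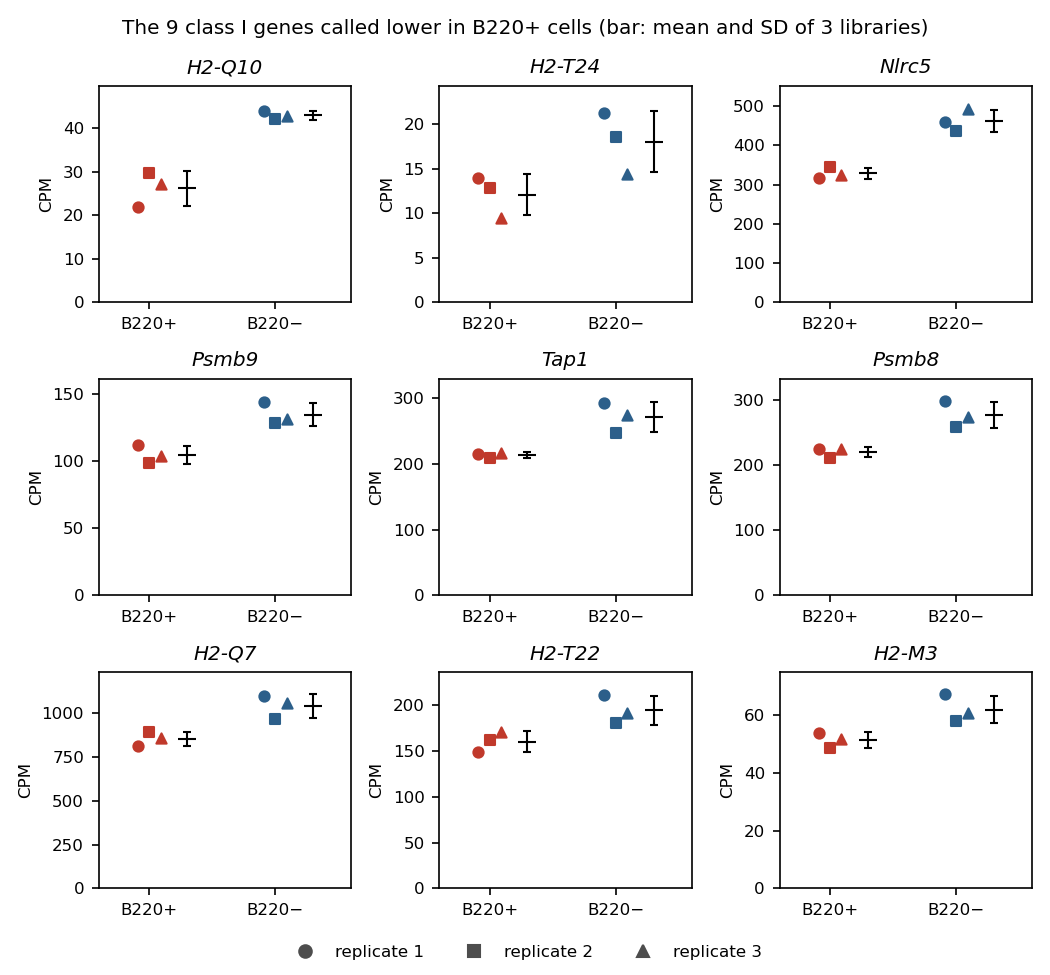
Normalised counts (CPM) in each library of the 9 class I genes called lower in B220+ cells, with B220+ left of B220− in each panel, symbols for replicates 1 to 3 and bars for the mean and SD of 3 libraries. The groups do not overlap in any panel, with the widest gap relative to the level of the gene for H2-Q10 and adjacent ranges for H2-T24.

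The 3 class I-like genes outside the H2 complex had log2 fold changes above 0 and were not called. Cd1d1, which presents lipids to natural killer T cells, stood at 42.4 to 45.9 CPM in B220+ and 35.9 to 41.3 CPM in B220− libraries. Its log2 fold change was 0.17 (SE 0.080, edgeR adjusted p = 0.225). Mr1, which presents vitamin B metabolites to mucosal-associated invariant T cells, stood at 18.3 to 22.8 CPM in B220+ and 15.7 to 19.1 CPM in B220− libraries. Its log2 fold change was 0.26 (SE 0.12, edgeR adjusted p = 0.212). Cd1d2, the near-copy of Cd1d1, stayed at or under 1.61 CPM and was not called (log2 fold change 0.83, SE 0.49). The sum of Cd1d1 and Cd1d2 had a log2 fold change of 0.19 (edgeR adjusted p = 0.175).

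Other genes of the class I pathway were read from a list of 44 chaperones, constitutive proteasome subunits, peptidases, interferon receptors, their signalling genes and promoter factors. All 44 were tested, and 5 were called lower (11.4%) and 0 higher by edgeR, beside 5.56% lower and 5.58% higher of all genes tested. At an unadjusted p under 0.05, for which all genes were not counted, 7 were lower and 2 higher. The median log2 fold change of the 44 was −0.063. Ifngr2, a subunit of the interferon-γ receptor, had 1.36, 1.99 and 1.91 CPM in B220+ libraries, and 6.84, 7.03 and 7.96 CPM in B220− libraries. It was 4.03-fold lower (log2 fold change −2.01, SE 0.22, edgeR adjusted p = 7.71e-05). Ifnar2, a subunit of the type I interferon receptor, was 1.36-fold lower (edgeR adjusted p = 0.00748). Irf9, a transcription factor of the interferon response, was 1.24-fold lower (edgeR adjusted p = 0.0178), and the proteasome activator subunit Psme2 was 1.22-fold lower (edgeR adjusted p = 0.0392). Psme2 kept its call in 1 of 6 fits that left out 1 library, without B220− replicate 3 (edgeR adjusted p up to 0.148, without B220− replicate 1). Irf9 kept it in 3 of 6, and lost it without B220+ replicate 1, B220− replicate 1 or B220− replicate 3 (edgeR adjusted p up to 0.0811). The count of 5 was 3 without B220+ replicate 1 or B220− replicate 1, with 1246 and 1373 of all genes called.

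Irf1, another interferon-induced activator of class I promoters, was not called (log2 fold change −0.18), nor were the promoter-binding factors Rfx5, Rfxap, Rfxank, Nfya, Nfyb, Nfyc and Creb1. Irf8 had 133, 138 and 128 CPM in B220+ libraries, and 34.6, 74.3 and 46.2 CPM in B220− libraries. This non-overlapping difference (log2 fold change 1.36, SE 0.30) had an edgeR adjusted p of 0.0628, with DESeq2 adjusted p = 6.56e-04, and B220− replicate 2 was the highest of its group. Without B220− replicate 2 the edgeR adjusted p was 8.82e-07, and without B220− replicate 1 it was 0.0425. The peptidase gene Tpp2 was called higher with the replicate block alone (log2 fold change 0.19, edgeR adjusted p = 0.0229). Irf8 and Tpp2 were named after their values were seen.

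**Figure D5:**
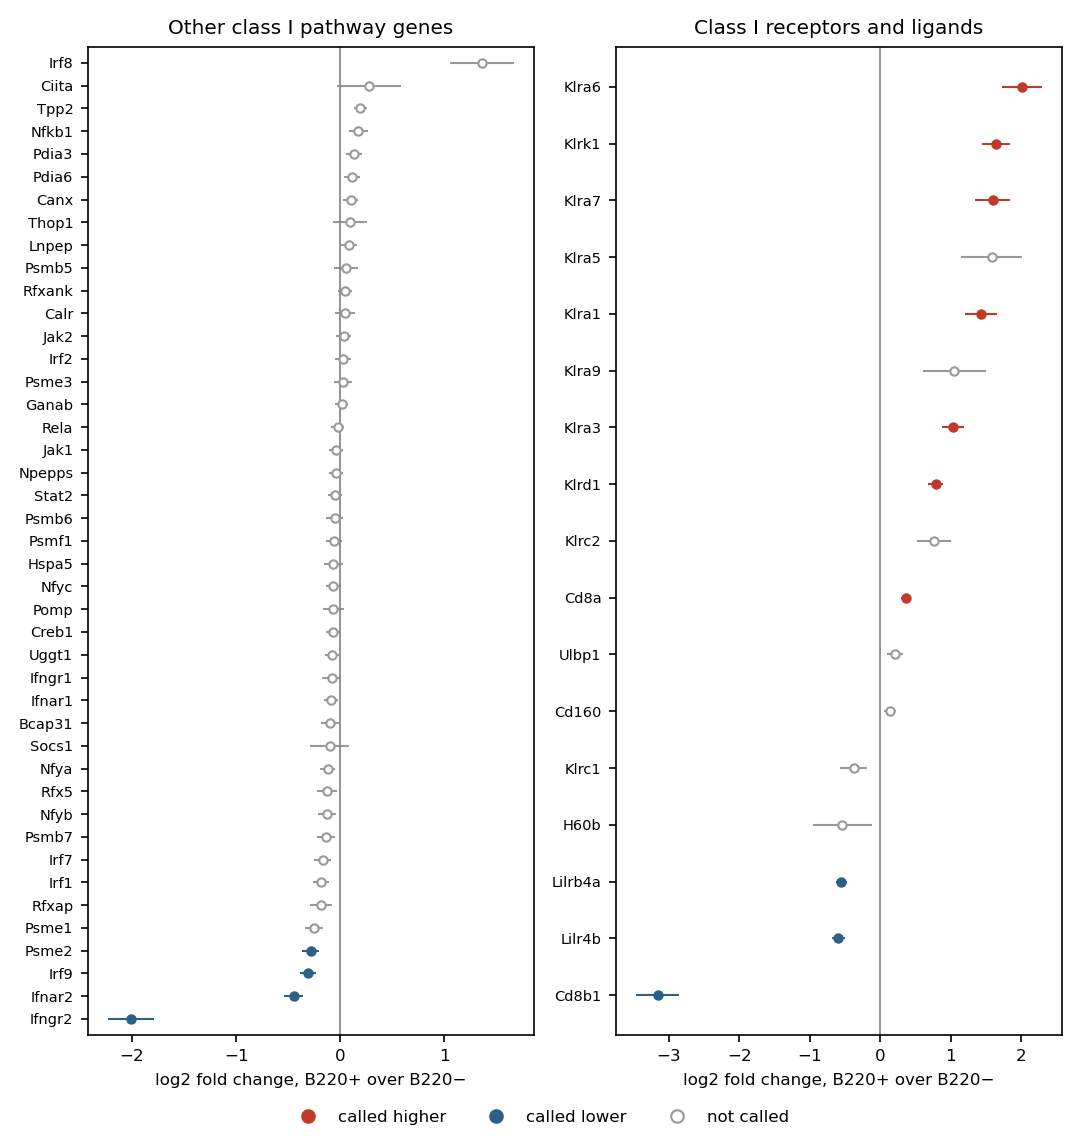
Log2 fold change (B220+ over B220−) of 43 other class I pathway genes and the 17 tested receptor and ligand genes, with bars of 1 standard error. In the pathway panel 4 points are called lower and 0 higher, with Ifngr2 at −2.01 farthest left, and in the receptor panel 7 are called higher and 3 lower.

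Receptors and ligands of class I and class I-like molecules, with related receptors, were the last list, with 31 of 36 entries in the table and 17 tested. Of these, 7 were called higher (41.2%), beside 5.58% of all genes tested, and 3 lower (17.6%), beside 5.56%. Without B220− replicate 3, 4 were called higher, with 1029 of all genes called in either direction. Klrd1 (CD94, the partner of NKG2 receptors of Qa-1) rose by 0.79 on the log2 scale, Klrk1 (NKG2D) by 1.64, Klra3 by 1.03 and Klra1 by 1.43 (both Ly49 receptors), and Cd8a by 0.36. Cd8b1 fell by 3.16, and Lilrb4a and Lilr4b fell by 0.55 and 0.60. All of these calls are by edgeR, with adjusted p from 4.28e-04 to 0.00779, and the call of Cd8a was lost without B220− replicate 3 (edgeR adjusted p = 0.0537). Of the NKG2 genes that pair with CD94, Klrc1 was not called (log2 fold change −0.38, edgeR adjusted p = 0.282). Klrc2 was not called either (0.76, edgeR adjusted p = 0.0669), and Klrc3 had too few counts for the test. These Klrc genes were named after their values were seen. Ly49 genes and the Lilrb4a and Lilr4b pair are near-copies whose reads may be shared.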

How the data were processed

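The submitters sequenced total RNA of 6 libraries made with the NEBNext Ultra II Directional kit, which marks strand, per the labels' protocols. The authors deposited raw whole-number counts for each gene. The submitters' processing notes name, in no stated order, featureCounts 1.6.3, SAMtools 1.9, HISAT2 2.1.0, Trimmomatic 0.38, FastQC 0.11.7 and the genome build mm10. Not given in the sources used here are the tools' options, strand use, read length, the annotation release and the handling of reads that match several genes. All 44 members had the coordinates of GENCODE release M21, which supplied exonic lengths, overlaps and transcript stretches. A member's own stretches left out its retained-intron transcripts. Matches to them were sought on either strand in all transcripts of other genes, retained introns included.

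Counts were tested with edgeR 4.0.16 and limma 3.58.1 in R 4.3.3 (TMM scaling with factors from 0.990 to 1.01, filterByExpr with a minimum count of 10 and total of 15, robust quasi-likelihood F test, group alone, all 6 libraries). P-values were Benjamini-Hochberg adjusted over the 14722 genes tested and called under 0.05. Fold changes are B220+ over B220−, and CPM uses scaled library sizes. The scripts were tested on simulated data. Members, gene lists and alternatives were chosen with earlier results of these data known. The alternatives were DESeq2 1.42.0, its size factors, no filter, a filter of 1 CPM in 3 libraries, a replicate block, a test against a fold change of 1.5, and leaving out each library in turn. Values in every library are given for each called member and for the 15 members with the highest mean CPM. From each list at most 8 called genes, by smallest p, are named. In the pathway list, 1 called gene is counted but not reported here.

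The pairing of replicate numbers was checked from deviations from group means across genes. Same-numbered libraries correlated at 0.345, 0.323 and 0.291, and others at −0.237 to −0.0596. Deviations cancel out within a group for each gene, so the negative values partly follow from the positive ones. Replicate numbers may mark pairs, on the data alone and without a label that says so. Reported calls are from the fit without the block, the block is an alternative, and the table's columns are numbered otherwise. Libraries of 1 group differed by more than counting error (7.37 to 16.2 chi-square units per degree of freedom), so none was counted as a repeat. RefSeq promoter entries matched 30 of the 44 members by symbol.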

Additional observations from a re-analysis of the deposited data

How the results depend on the processing

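Of the tested genes, 1639 were called, 2569 with the replicate block, 337 against a fold change of 1.5, and 970 to 1789 when 1 library was left out, with 970 without B220+ replicate 2 and 1029 without B220− replicate 3. The 9 class I genes called lower became 12 with the replicate block (H2-T23, Tap2 and Psmb10 were added), 8 with DESeq2, 0 against a fold change of 1.5 and 4 to 8 without 1 library, while none was called higher in any alternative. Pathway genes called lower numbered 5, but 7 with the replicate block, 6 without the low-count filter, 1 against a fold change of 1.5 and 3 to 5 without 1 library. Those called higher numbered 0, but 1 with DESeq2 (Irf8), 1 with the replicate block (Tpp2) and 0 to 1 without 1 library. Receptor genes called higher numbered 7, but 3 against a fold change of 1.5 and 4 to 8 without 1 library, and those called lower numbered 3, but 1 against that fold. The sum of H2-T10 and H2-T22 had a log2 fold change of −0.21 and passed with the replicate block alone (−0.21, edgeR adjusted p = 0.0385). The block changed no other call of a class I gene. The 6 uncalled genes that follow changed sign when 1 library was left out: the log2 fold change spanned −0.10 to 0.042 for Erap1, −0.036 to 0.050 for Tapbp, −0.13 to 0.081 for H2-Q5, −0.055 to 0.054 for H2-K2, −0.083 to 0.092 for H2-Q6 and −0.10 to 0.073 for H2-T10. The cause was not tested. Over the 28 tested class I genes, 289 alternative values kept direction and side of the threshold, 30 lost the call, 3 gained it and 13 changed sign. Cd1d2 had no value under the filter of 1 CPM.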
